A study of Mus musculus with 4 samples.

Results

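Klrd1, Klrk1, Klrc1, Klrc2, Klrb1c, Ncr1 and Xcl1 are 7 genes of natural killer (NK) cells, here measured in mouse cells cultured toward the T-cell fate. They were chosen by symbol, and all 7 were found among the 31053 genes of each of 2 single-cell RNA libraries. The values are unique molecular identifiers (UMIs, counted transcript molecules) in cells with at least 500 genes, under 10% mitochondrial UMIs and 1 clear hashtag. In that state were 8797 of 9967 deposited barcodes in experiment 1 and 8335 of 10556 in experiment 2. A hashtag is an antibody-borne barcode that marks the culture a cell came from.

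The study placed bone marrow progenitors of mice 8 to 10 weeks old on OP9-Dll1 stroma, which presents a Notch ligand, with IL-7 and Flt3 ligand at 10 ng/ml each. All progenitors carried a Bcl2 transgene. Vectors went in on day 2. For gain of Runx1, Bcl2-transgenic cells received MSCV-Runx1-mCherry or MSCV-empty-mCherry and were sorted on day 4 or 6 as lineage-negative, mCherry+ CD45+ cells. For loss of Runx1 and Runx3, cells of Cas9;Bcl2-transgenic mice received E42-gRunx1-hNGFR with E42-gRunx3-mTurquoise, 3 guide pairs per gene, or E42-gControl with a luciferase guide, and were sorted on day 5 or 8 as lineage-negative, mTurquoise+ hNGFR+ CD45+ cells. Equal cell numbers were pooled for droplet sequencing. The labelled culture time was 4 to 5 days in experiment 1 and 4 to 8 days in experiment 2. The 8 hashtag columns of each experiment are named only by hashtag, so tags 1 to 8 below are cultures of unknown condition. A tag number names a column within its experiment and does not link the experiments. With 1 RNA library per experiment and no condition per tag, no test was made. The intervals given are exact 95% intervals and cover counting error only.

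Most of these genes code for receptors of the NK gene complex. Klrd1 codes for CD94, the invariant chain that pairs with NKG2A (Klrc1, inhibitory) or NKG2C (Klrc2, activating) to read the class Ib molecule Qa-1, the product of H2-T23. Klrk1 codes for NKG2D, an activating receptor for stress-induced ligands that signals through the adaptors DAP10 (Hcst) and DAP12 (Tyrobp). Klrb1c codes for NK1.1 and Ncr1 for NKp46, both used to mark NK cells. Xcl1 codes for lymphotactin, a chemokine secreted by NK and CD8 T cells that draws Xcr1-bearing dendritic cells. Bone marrow progenitors that enter the T-cell path keep access to the NK and innate lymphoid fates until commitment, and Runx factors act in both lineages.

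On the GRCm38.p6 annotation, 5 of the 7 protein-coding genes lie on chromosome 6: Klrb1c at chr6:128778485-128788641, Klrd1 at chr6:129588092-129598775, Klrk1 at chr6:129610323-129623903, Klrc2 at chr6:129649602-129660737 and Klrc1 at chr6:129666015-129682852. Ncr1 lies at chr7:4337715-4345184 and Xcl1 at chr1:164931644-164935522. Because the study altered Runx genes, the RefSeq sequences before the start of the members are shown with matches to the RUNX core TGTGGT, or its reverse complement ACCACA, in capitals. The table held 6 of the 7 members, all but Klrd1. Each line gives the 250 bases before a RefSeq start of the gene, 5′ to 3′ on the gene's strand, on build GRCm38.p6. That start can lie inside the gene span given above. The Klrc1 window lies wholly inside its span, and the Klrc2 and Klrk1 windows reach into theirs. The windows are chr6:129623865-129624114 (minus strand) for Klrk1, chr6:129678974-129679223 (minus) for Klrc1, chr6:129660597-129660846 (minus) for Klrc2, chr6:128788642-128788891 (minus) for Klrb1c, chr7:4337465-4337714 (plus) for Ncr1 and chr1:164935523-164935772 (minus) for Xcl1.
Klrk1: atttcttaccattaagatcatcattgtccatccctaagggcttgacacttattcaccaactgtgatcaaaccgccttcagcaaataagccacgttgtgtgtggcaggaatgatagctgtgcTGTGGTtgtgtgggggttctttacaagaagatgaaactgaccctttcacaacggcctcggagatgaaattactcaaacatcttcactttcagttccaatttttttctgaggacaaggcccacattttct
Klrc1: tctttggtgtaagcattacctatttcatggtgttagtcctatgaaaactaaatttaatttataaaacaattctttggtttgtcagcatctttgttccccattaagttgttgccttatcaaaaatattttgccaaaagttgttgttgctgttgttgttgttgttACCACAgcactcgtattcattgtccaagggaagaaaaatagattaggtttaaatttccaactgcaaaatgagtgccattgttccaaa
Klrc2: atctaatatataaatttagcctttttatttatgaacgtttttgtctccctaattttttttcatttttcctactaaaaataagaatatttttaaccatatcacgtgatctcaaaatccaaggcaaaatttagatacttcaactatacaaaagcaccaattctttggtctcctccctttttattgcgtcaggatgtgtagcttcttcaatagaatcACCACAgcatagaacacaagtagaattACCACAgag
Klrb1c: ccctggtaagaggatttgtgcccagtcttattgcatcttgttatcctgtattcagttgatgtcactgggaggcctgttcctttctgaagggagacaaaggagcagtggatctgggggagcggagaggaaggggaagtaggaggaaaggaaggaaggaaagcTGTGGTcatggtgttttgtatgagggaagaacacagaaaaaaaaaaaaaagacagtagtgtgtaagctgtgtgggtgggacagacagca
Ncr1: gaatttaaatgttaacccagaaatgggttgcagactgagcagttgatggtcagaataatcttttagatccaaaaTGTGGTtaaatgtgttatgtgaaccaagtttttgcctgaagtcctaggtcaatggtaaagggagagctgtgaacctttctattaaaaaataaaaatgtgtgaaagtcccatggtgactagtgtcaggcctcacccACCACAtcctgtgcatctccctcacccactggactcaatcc
Xcl1: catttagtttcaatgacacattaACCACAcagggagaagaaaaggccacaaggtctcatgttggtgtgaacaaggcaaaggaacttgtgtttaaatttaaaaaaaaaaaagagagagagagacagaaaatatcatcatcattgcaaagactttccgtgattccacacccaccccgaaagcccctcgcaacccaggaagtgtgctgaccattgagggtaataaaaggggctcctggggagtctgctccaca

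A RUNX match was in the window of 6 of the 6 members in the table, against 15.9% of the 27025 genes with a window of the same length. The Klrc1 and Klrc2 matches lie within the gene spans given above. Klrc2 and Ncr1 each have a further, overlapping window that holds the same 2 matches. In the printed windows the nearest match began 9 bases before the start in Klrc2, 41 in Ncr1, 87 in Klrc1, 89 in Klrb1c, 129 in Klrk1 and 227 in Xcl1. The T-box core GGTGTGA, or TCACACC, searched on both strands as well, was in 1 of the 6 (Xcl1) and in 3.84% of all genes. Such matches describe letters in a window and are not measured binding sites.

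Tags held 691 to 1291 cells in experiment 1 and 855 to 1312 in experiment 2, with 14502385 to 38067298 and 22272716 to 42684236 UMIs. The median cell held 18057.5 to 29606 UMIs in the tags of experiment 1, and 19543 to 31961 in those of experiment 2. The libraries shared 39 cell barcodes. Levels are given as UMIs per 1000000 UMIs (CPM) summed over the cells of a tag or cluster and are compared within a gene.

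The members were rare transcripts in both experiments, and their molecules sat in a small part of the cells. Klrd1 had a UMI in 527 tagged cells of experiment 1 (5.99%, 5.50% to 6.51%) and in 971 of experiment 2 (11.6%, 10.97% to 12.36%). For Klrk1 the counts were 210 cells (2.39%) and 734 cells (8.81%). The NKG2 chains were found in fewer cells, with Klrc1 in 84 and 279 and Klrc2 in 97 and 221. Klrb1c was in 37 and 123 cells, Ncr1 in 27 and 127, and Xcl1 in 42 and 337. In experiment 1, the 50 cells with the most Klrk1 carried 58.3% of its UMIs. Such cells carried 40.6% for Klrd1 and 77.1% to 100% for the rarer members. In experiment 2 they carried 24.5% for Klrd1, 27.1% for Klrk1 and 43.2% to 77.8% for the others. Klrc1 and Klrc2 are close paralogs, so reads could be split between them in counting, and their separate values are uncertain to that extent.

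Klrd1 set 2 tags of experiment 1 apart from the other 6. Its level over the 8 tags ran from 2.01 CPM (tag 4) through a median of 4.88 to 39.0 CPM (tag 7), with tag 8 next at 24.1 CPM. The other 6 tags lay between 2.01 and 6.70 CPM and none overlapped tags 7 and 8 within counting error. The highest tag was 19.4 times the lowest (15.01 to 25.47), or 12.0 times without tag 7. Tag 7 had the fewest UMIs per cell of the 8 tags. With each cell thinned to 10000 UMIs, 12.8% of tag 7 cells (986 deep enough, 212 left out) and 8.32% of tag 8 cells (625, with 66 left out) still had a Klrd1 UMI. The other tags had 0.866% to 3.28% after thinning. Unthinned, the shares were 16.2% and 12.2% against 1.52% to 5.03%.

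Klrk1 followed another order in experiment 1. Its lowest tag was again tag 4 at 1.18 CPM, the median was 4.12 CPM and the highest was tag 6 at 8.61 CPM, a ratio of 7.30 (5.15 to 10.6) that was 4.51 without tag 4. Tags 8 and 7 followed at 7.52 and 5.59 CPM, and the intervals of tags 6 and 8 overlapped (7.56 to 9.77 and 6.17 to 9.07). Klrc1 ran from 0 UMIs in tag 4 to 3.29 CPM in tag 7, with a median of 0.974 CPM. The 3 counts that a count of 0 allows make that at least 34.4-fold. Klrc2 ran from 0.218 CPM (tag 2) through 0.736 to 2.97 CPM (tag 7). Both NKG2 chains were thus highest in tags 7 and 8, as Klrd1 was.

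Klrb1c and Ncr1 were near the counting floor in experiment 1. Klrb1c spanned 0.0273 CPM (1 UMI, tag 2) to 0.360 CPM, with a median of 0.216 CPM, and the intervals of most tags overlapped. Ncr1 spanned 0.0273 to 0.921 CPM around a median of 0.293 CPM, highest in tag 6. The chemokine gene Xcl1 was highest in tag 5 at 3.08 CPM, above a median of 0.874 CPM and a low of 0.128 CPM (4 UMIs, tag 4). Its 63 UMIs in tag 5 came from 6 cells.

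In experiment 2 every member was highest in tag 4. Klrd1 spanned 5.82 CPM (tag 2) to 49.2 CPM (tag 4) with a median of 17.6 CPM, and tag 8 was close behind at 46.8 CPM. The intervals of those 2 tags overlapped (46.5 to 51.9 and 44.0 to 49.8). The highest was 8.44 times the lowest (7.17 to 9.99). Klrk1 spanned 2.04 CPM (tag 1) to 45.3 CPM with a median of 15.2 CPM, a ratio of 22.2 (17.4 to 28.6). Unlike Klrd1, it had no second high tag: tags 5, 3, 6 and 8 lay between 14.95 and 18.68 CPM. Without tag 4 the Klrk1 ratio was 9.15.

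Xcl1 had the widest span of the 7. It ran from 1.69 CPM (tag 1) through a median of 6.58 CPM to 176.1 CPM in tag 4, with tag 3 next at 39.9 CPM, a ratio of 104.1 (80.4 to 137.4). Without tag 4 that ratio was 23.6. In tag 4, 129 cells held 4604 Xcl1 UMIs, and the 5 richest cells held 35.6% of them. Klrc1 spanned 0.424 CPM (tag 2) to 18.4 CPM (tag 4), with tag 8 at 11.3 CPM and a median of 3.51 CPM, a ratio of 43.3 (24.6 to 84.5) that was 26.6 without tag 4. For Klrc2 the range was 0.212 to 5.66 CPM with a median of 1.41 CPM, for Klrb1c 0.117 to 5.16 CPM with a median of 0.604 CPM, and for Ncr1 0.204 to 11.6 CPM with a median of 1.74 CPM.

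A gene entered the count of spread between tags only with at least 10 UMIs in its lowest tag. That left 2 members in experiment 1 (Klrd1 and Klrk1) and 4 in experiment 2 (Klrd1, Klrk1, Klrc1 and Xcl1). All 2 of 2 and 4 of 4 had a highest tag at least 2 times the lowest, against a background of 20.5% of 11249 genes and 28.1% of 11605 genes. With the lowest tag set to at least 3 UMIs and no such minimum, 7 of 7 members passed in each experiment, against 32.1% and 40.3% of genes. Among genes with as many UMIs in all as the members, those shares were 61.5% and 36.5%. In experiment 1 the spread of the rarer members is therefore a common one at such counts.

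**Figure D1:**
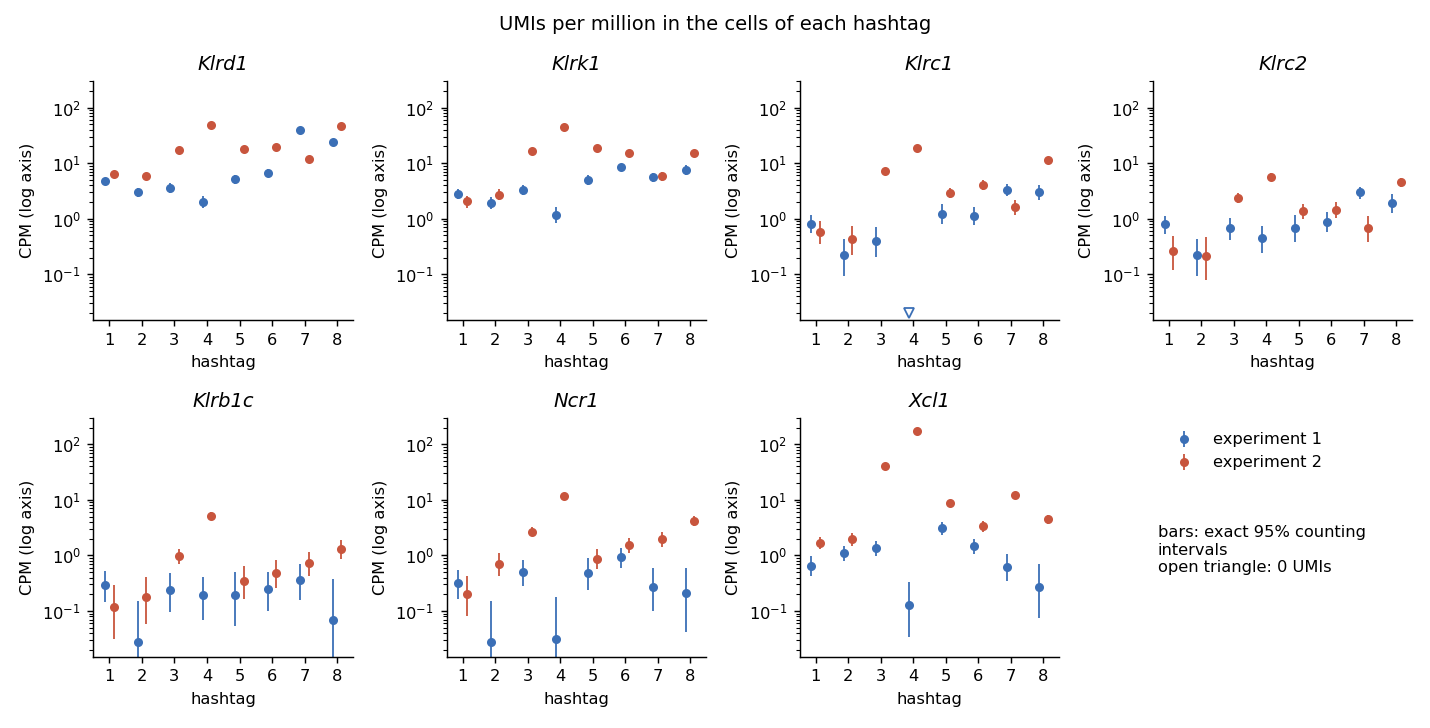
CPM (log axis) of each gene in the cells of each hashtag, with exact 95% counting intervals; blue is experiment 1, red experiment 2, and tag numbers do not link the experiments. Klrd1 is at 39.0 and 24.1 CPM in tags 7 and 8 of experiment 1, and all 7 genes are highest in tag 4 of experiment 2.

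The cells were clustered on variable genes with the 7 members left out, so that the clusters did not rest on them. In experiment 1, 1 small cluster of 206 cells (2.34% of tagged cells), with 9130015A21Rik, Tnni1, Il2rb and Icos among its 10 leading genes and called Tnni1-led here, held 65.2% of all member UMIs and 1.62% of all UMIs. Its 50 leading genes held 3 markers of an NK list and 3 of a type 2 innate lymphoid list, so it was given no cell type name. It drew 10 to 50 cells from every tag. A cluster with those 4 genes among its 10 leading ones stood out in experiment 2, with 194 cells (2.33%) and 30.1% of the member UMIs.

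Every member was far higher in the Tnni1-led cells than in the rest. In experiment 1 Klrd1 reached 257.5 CPM there, Klrk1 212.3, Klrc1 53.9, Klrc2 50.6, Ncr1 20.1, Xcl1 62.3 and Klrb1c 4.75 CPM. The cluster held 97.3% of the Ncr1, 96.5% of the Xcl1, 88.3% of the Klrc2, 86.2% of the Klrc1 and 85.6% of the Klrk1 UMIs, but only 47.0% of the Klrd1 and 37.8% of the Klrb1c UMIs. In experiment 2 the levels were 402.9 CPM for Klrd1, 409.9 for Klrk1, 160.6 for Klrc1, 69.7 for Klrc2, 34.4 for Klrb1c, 118.3 for Ncr1 and 324.8 for Xcl1. The cluster held 65.3% of the Ncr1, 54.2% of the Klrc2, 48.4% of the Klrb1c, 44.1% of the Klrc1, 42.4% of the Klrk1, 30.2% of the Klrd1 and 16.3% of the Xcl1 UMIs of that experiment. At least 10-fold higher there than in all other tagged cells were 5 of 5 members in experiment 1 and 7 of 7 in experiment 2. These are the members with at least 10 UMIs on both sides. The shares over all genes were 1.72% of 9807 and 1.51% of 9591. The cluster was singled out after its member levels were seen, so this contrast describes it and is no test.

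Among Tnni1-led cells the tags were closer in Klrk1 than in Xcl1. Across the 6 tags of experiment 2 with at least 10 such cells, Klrk1 ran from 280.2 to 708.4 CPM and Klrd1 from 189.7 to 515.9 CPM. Xcl1 ran from 37.9 CPM in tag 6 to 1246 CPM in tag 7. Ncr1 ran from 49.0 to 209.8 CPM and Klrb1c from 8.23 to 85.7 CPM.

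A second site of the members appeared in experiment 2 alone as a cluster of its own: 166 cells led by Gzmc, Cd8b1, Ifng and Trac, called Cd8b1-led here. Its leading genes mix the NK list with CD8 and T-cell receptor genes, so it too was left unnamed. Of its cells, 106 carried tag 4 and 38 tag 3. It held 50.1% of all member UMIs of experiment 2, with 81.5% of the Xcl1 UMIs, at 1228 CPM, and 46.3% of the Klrc1 UMIs. Klrd1 stood at 250.4 CPM, Klrk1 at 202.1, Klrc1 at 127.0, Ncr1 at 44.1, Klrc2 at 33.8 and Klrb1c at 20.5 CPM. The NK-marking genes came almost wholly from tag 4 within it: Ncr1 was at 76.0 CPM in the tag 4 cells and 2.21 CPM in the tag 3 cells, and Klrb1c at 33.9 and 1.47 CPM. Klrd1 and Xcl1 differed less between those tags, at 333.9 and 144.8 CPM and at 1563 and 964.5 CPM. These cells accounted for 70.4% of the Klrd1 and 92.0% of the Xcl1 UMIs of tag 4.

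**Figure D2:**
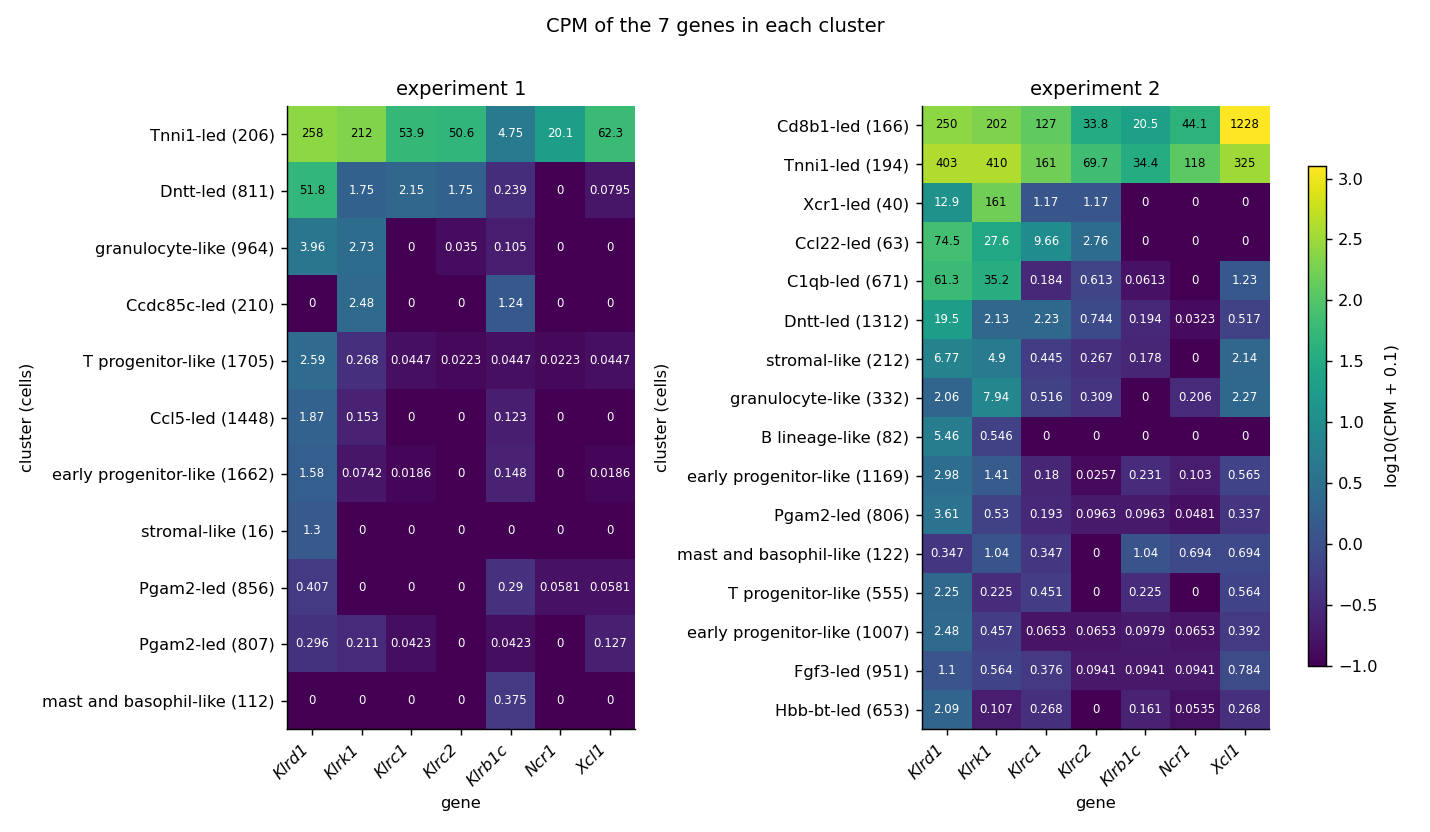
CPM of the 7 genes (columns) in each cluster (rows, with cell number), coloured by log10(CPM + 0.1); the clusters were formed without these genes. All 7 are high in the Tnni1-led rows, at 257.5 and 402.9 CPM for Klrd1, and in the Cd8b1-led row of experiment 2, at 250.4 CPM. Some other rows show Klrd1 or Klrk1 with little of the rest.

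Klrd1 was also found with few NKG2A or NKG2C transcripts, in cells led by Sh2d1a and Dntt. Dntt codes for terminal transferase, which adds bases at antigen receptor joints, and Sh2d1a for the SLAM adaptor SAP. In experiment 1 this Dntt-led cluster had 811 cells, 584 of tag 7 and 211 of tag 8, and Klrd1 stood at 51.8 CPM (47.9 to 55.9). Klrk1 there was at 1.75 CPM, Klrc1 at 2.15, Klrc2 at 1.75 and Ncr1 at 0 UMIs. Klrd1 was at 58.1 CPM in the tag 7 cells and 34.2 CPM in the tag 8 cells. The cluster held 61.2% of the Klrd1 UMIs of tag 7 and 31.8% of those of tag 8. Cells of tags 7 and 8 in all other clusters but the Tnni1-led one had 6.09 and 5.01 CPM, and those of the other 6 tags 0.442 to 2.39 CPM.

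Without the Tnni1-led cells the Klrd1 spread between the tags of experiment 1 was wider, at 63.9-fold, from 0.442 CPM in tag 3 to 28.2 CPM in tag 7. Runx1 itself was at 240.8 CPM in tag 7 and 210.0 CPM in tag 8, and at 38.2 to 96.5 CPM in the other tags. These levels do not place a tag in a condition, and their part in the Klrd1 values was not tested.

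Experiment 2 had such a cluster in several tags, and Klrd1 differed between the tags inside it. The Dntt-led cluster held 1312 cells with Klrd1 at 19.5 CPM. In its 313 cells of tag 8 Klrd1 was at 50.5 CPM (45.9 to 55.4) and in its 113 cells of tag 6 at 44.98 CPM (37.6 to 53.4). In its 563 cells of tag 7, the largest group, there were 3 Klrd1 UMIs, or 0.260 CPM (0.0536 to 0.759). The 103 cells of tag 5 were at 0.437 CPM, the 140 of tag 3 at 7.01 and the 35 of tag 4 at 5.57 CPM. Klrc1 was at 7.48 CPM (5.77 to 9.53) in the tag 8 cells, with 65 UMIs, and at 0.687 CPM in the tag 6 cells. Klrc2 was at 1.96 and 2.06 CPM in them. Shares of cells with a UMI followed: 24.8% in tag 6 and 20.8% in tag 8 against 0.533% in tag 7, at median depths of 24025, 26440 and 20083 UMIs.

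A finer clustering, chosen after these values were seen, divided those cells further. A Sh2d1a-led group of 346 cells, 221 of tag 8 and 91 of tag 6, carried 569 of the 603 Klrd1 UMIs at 58.9 CPM and 67 of the 69 Klrc1 UMIs at 6.93 CPM. The remaining 966 cells had Klrd1 at 1.60 CPM and more Dntt (399.0 against 153.3 CPM). Within the Sh2d1a-led group the 14 cells of tag 7 had no Klrd1 UMI. In experiment 1 the same division left Klrd1 at 48.6 CPM in the 312 Sh2d1a-led cells and 55.7 CPM in the other 499. Runx1 was at 199.2 and 160.9 CPM in the Dntt-led cells of tags 6 and 8 and at 62.4 to 102.4 CPM in the other tags with at least 10 such cells. Its part in the Klrd1 level was not tested.

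**Figure D3:**
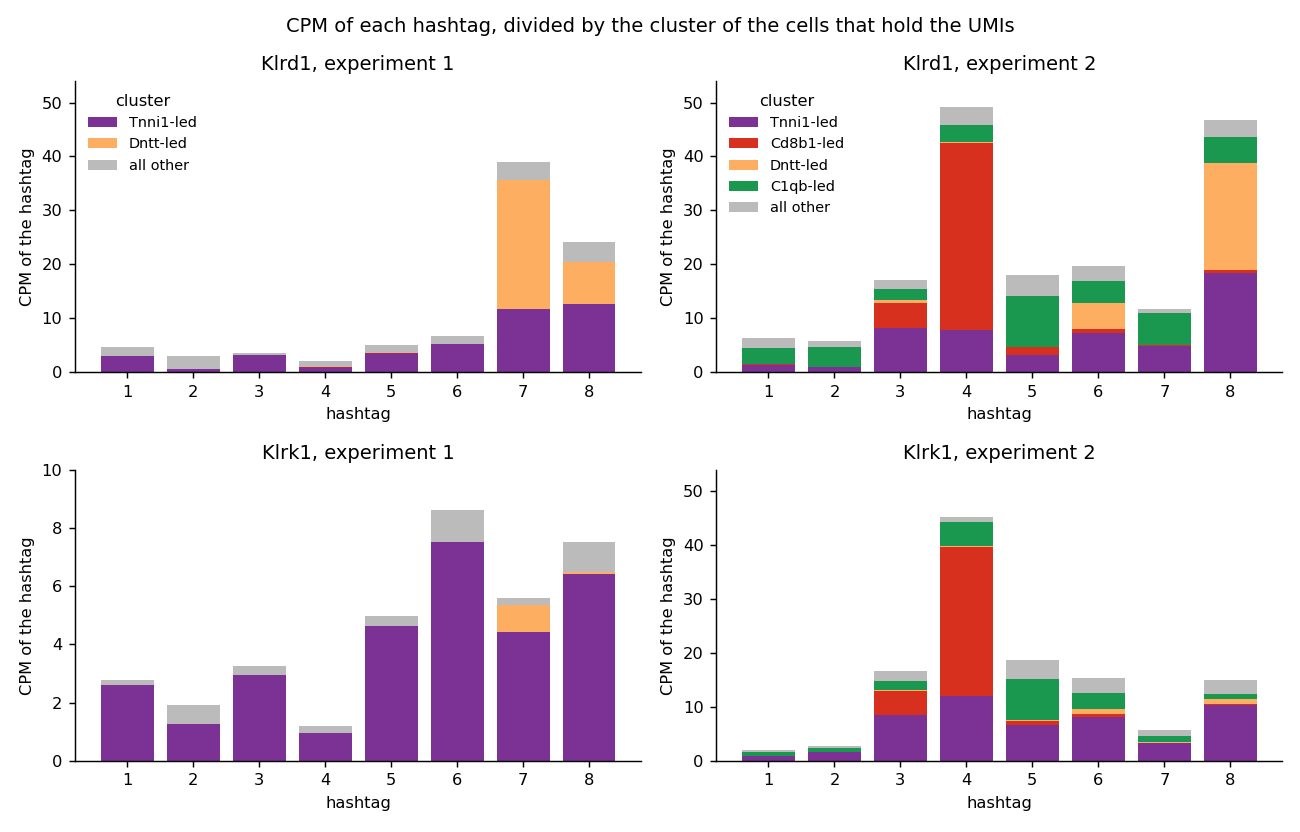
CPM of Klrd1 (top) and Klrk1 (bottom) in each hashtag, with each bar divided by the cluster of the cells that hold the UMIs; the Klrk1 axis of experiment 1 ends at 10 CPM. Dntt-led cells give 61.2% of the Klrd1 of tag 7 in experiment 1 and 42.1% of that of tag 8 in experiment 2, and little of the Klrk1.

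Klrd1 and Klrk1 were found together, without NKG2A or NKG2C, in a cluster of experiment 2 led by myeloid genes. Its 671 cells were led by Clec4n, Ms4a4c, C1qb and Il1b, and it is called C1qb-led here. Its top 50 genes also held 5 dendritic cell markers, none among the first 10. Klrd1 was at 61.3 CPM (57.5 to 65.2) and Klrk1 at 35.2 CPM (32.4 to 38.2), while Klrc1 was at 0.184, Klrc2 at 0.613 and Klrb1c at 0.0613 CPM and Ncr1 had 0 UMIs. Klrd1 UMIs were in 41.9% of the cells and Klrk1 UMIs in 38.6%. All 8 tags contributed at least 41 cells, and in each tag both genes were present: Klrd1 from 29.1 CPM (tag 1) to 173.2 CPM (tag 7) and Klrk1 from 6.56 CPM (tag 1) to 76.7 CPM (tag 4). The tags did not rank alike for the 2 genes.

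Other clusters with dendritic or myeloid genes held one of the 2 genes more than the other. The 40 Xcr1-led cells, whose leading genes include the dendritic markers Xcr1 and Clec9a, had Klrk1 at 160.6 CPM (134.8 to 189.8), found in 92.5% of them, and Klrd1 at 12.9 CPM (6.44 to 23.1). They are thus cells with transcripts of the receptor of the Xcl1 product, and had no Xcl1 UMI. Only tag 8 gave at least 10 of them, with 16 cells. The 63 cells led by Ccl22 and Ccr7 had Klrd1 at 74.5 CPM and Klrk1 at 27.6 CPM, but 1 cell gave 34 of the 54 Klrd1 UMIs. Klrk1 was in 11.3% of the stromal-like cells used as background below, at 4.90 CPM. Granulocyte-like cells of experiment 2 had 2.06 CPM Klrd1 and 7.94 CPM Klrk1 (6.27 to 9.92), the latter in 11.1% of cells. That share was near the stromal-like one, but at a median depth of 28536 against 49939.5 UMIs. Per UMI their Klrk1 lay higher than the stromal-like 4.90 CPM (3.69 to 6.38), with overlapping intervals. Experiment 1 had no C1qb-led cluster, and its granulocyte-like cells had 3.96 CPM Klrd1 and 2.73 CPM Klrk1.

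Clusters that should lack NK receptors give the background level. Mast and basophil-like cells had 0 Klrd1 UMIs in 112 cells of experiment 1, where the 3 counts that a count of 0 allows make a share of up to 2.68%, and 1 positive cell among 122 (0.820%) in experiment 2, at median depths of 22631.5 and 21644.5 UMIs. The stromal-like cells of experiment 2 were deeper, at 49939.5 UMIs, and 14.2% of them had a Klrd1 UMI, at 6.77 CPM. The early progenitor-like cluster of experiment 1 held 3 early progenitor markers in its top 50 genes. None was among the first 10, which included histone genes and Aurkb. Early progenitor-like cells had Klrd1 at 1.58 CPM in experiment 1 and 2.48 and 2.98 CPM in the 2 such clusters of experiment 2, with 4.03% to 8.04% of cells positive. Those shares lay between the mast and the stromal ones, and no expression is read from them here. Those of the Tnni1-led, Cd8b1-led and C1qb-led cells (76.3%, 86.1% and 41.9% for Klrd1) lay far above it.

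Most cells with any member had 1 of the 7. In experiment 1, 647 cells (7.35%) had a UMI of at least 1 member and 175 (1.99%, 1.71% to 2.30%) of at least 2. In experiment 2 the numbers were 1436 (17.2%) and 546 (6.55%, 6.03% to 7.10%). Cells with only Klrd1 made up 365 of the 647 (56.4%) and 459 of the 1436 (32.0%). Only Klrk1 was found in 65 and 266 cells, only Xcl1 in 8 and 93 and only Klrb1c in 24 and 28. All 7 members were found in 4 cells of experiment 1 and 37 of experiment 2. By tag, cells with at least 2 members ran from 0.495% (tag 4) to 4.92% (tag 7) in experiment 1 and from 1.46% (tag 2) to 12.9% (tag 4) in experiment 2. Thinned to 10000 UMIs, those tags had 0.346% and 4.36%, and 1.12% and 12.1%.

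**Figure D4:**
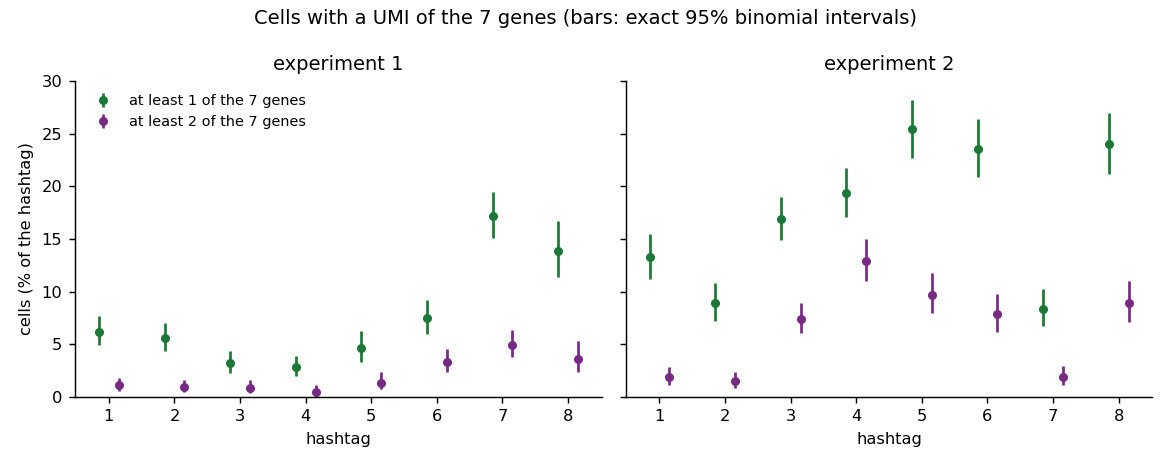
Percent of the cells of each hashtag with a UMI of at least 1 (green) or at least 2 (purple) of the 7 genes, with exact 95% binomial intervals. Cells with at least 2 of the genes reach 4.92% in tag 7 of experiment 1 and 12.9% in tag 4 of experiment 2.

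The CD94 partners were rarely found without CD94 transcripts. Of the cells with Klrc1, 89.3% (80.6% to 94.98%) in experiment 1 and 84.9% (80.2% to 88.9%) in experiment 2 also had Klrd1, against 5.19% and 9.11% of cells without Klrc1. For Klrc2 the shares were 86.6% and 90.5%. The converse did not hold: 14.2% and 24.4% of Klrd1-positive cells had Klrc1. It depended on the cluster, with Klrc1 in 48.8% and 70.3% of the Klrd1-positive Tnni1-led cells, 71.3% of the Cd8b1-led ones and 0.356% of the C1qb-led ones (1 of 281). Ncr1-positive cells had Klrk1 in 92.6% and 86.6% of cases. Klrb1c was the least tied to the others in experiment 1, where 29.7% of its 37 cells had Klrd1, and more so in experiment 2, with 74.8% of 123.

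Correlations across all tagged cells were computed on ln(1 + UMIs per 10000) and are descriptions, since cells share 1 library, their depth and their clusters. For each member the 3 most similar genes, by the lower r of the 2 experiments (8797 and 8335 cells), were named among genes found in at least 30 cells of each experiment. Ncr1, in 27 cells of experiment 1, was therefore not named beside another member, although its own r with Xcl1 and Klrb1c is above theirs with the genes listed. For Klrd1 they were other members: Klrk1 (r = 0.505 and 0.605), Klrc2 (0.501 and 0.519) and Klrc1 (0.499 and 0.564). For Klrk1 they were Il2rb, the beta chain of the IL-2 and IL-15 receptors (0.621 and 0.621), Klrc2 (0.628 and 0.591) and Klrc1 (0.521 and 0.606). For Klrc1 and Klrc2 they were the other 3 of Klrd1, Klrk1, Klrc1 and Klrc2. Ncr1 went with Xcl1 (0.447 and 0.499), Klrk1 (0.412 and 0.531) and Klrb1c (0.404 and 0.596). Xcl1 went with Il2rb (0.436 and 0.621), Klrk1 (0.411 and 0.534) and Tnfrsf9 (0.355 and 0.569). For Klrb1c the values were low in experiment 1: Xcl1 (0.273 and 0.508), Klre1 (0.218 and 0.373) and Klrc1 (0.216 and 0.494).

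Other receptors, listed from the NK complex and from NK cells more widely, were mostly near 0. Of 32 listed, 29 were in the files, and 6 and 7 had at least 10 UMIs in every tag. Of those, 4 and 6 had a highest tag at least 2 times the lowest, against 20.5% and 28.1% of all genes, with medians of 2.24 and 4.41 against 1.38 and 1.49. Cd160, a receptor of the HVEM ligand, stood at a mean of 53.8 and 59.5 CPM over tags and reached 371.8 and 573.5 CPM in the Tnni1-led cells. Cd244 (means 41.1 and 30.9 CPM) and Fcgr3 (8.59 and 11.5 CPM) were spread over other cells. Klrb1f had means of 8.27 and 10.3 CPM. The Ly49 genes Klra3, Klra6, Klra7, Klra8, Klra9 and Klra10, of which several mark mature NK cells, had 0 UMIs in experiment 1. In experiment 2 Klra8 and Klra10 again had none, and Klra3, Klra7 and Klra9 were at 7.38, 2.95 and 1.27 CPM in the Cd8b1-led cells. Klra5 was at 6.98 and 39.4 CPM in the Tnni1-led cells, against 0.0138 and 0.0961 CPM elsewhere. Klre1, at a mean of only 0.495 and 1.88 CPM, was at 20.7 and 47.0 CPM in the Tnni1-led cells. In that cluster 3 of 9 and 8 of 13 listed genes tested were at least 10-fold higher than elsewhere, against 1.72% and 1.51% of all genes.

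The adaptors that these receptors need were present widely. Tyrobp averaged 517.1 and 649.8 CPM over tags, Fcer1g 315.2 and 340.0, Hcst (DAP10) 25.3 and 34.5 and Cd247 (CD3 zeta) 7.97 and 14.2 CPM. In the Tnni1-led cells Cd247 was 10.9 and 6.71 times the level elsewhere, Hcst 2.15 and 2.85 times, and Tyrobp 0.785 and 1.25 times. The C1qb-led cells, with Klrd1 and Klrk1, had Tyrobp at 1802 CPM and Hcst at 19.1 CPM. Highest-to-lowest tag ratios of at least 2 were met by 2 of 4 adaptors in experiment 1 and 4 of 4 in experiment 2 (all genes 20.5% and 28.1%), with medians of 2.06 and 2.93.

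Ligand genes of the receptors were expressed in the same cultures. H2-T23, the Qa-1 gene read by CD94 with NKG2A or NKG2C, averaged 84.2 and 63.5 CPM over tags. Clec2d and Clec2i, ligands of Klrb1-family receptors, averaged 26.6 and 33.5 CPM and 21.5 and 20.3 CPM. The NKG2D ligand Ulbp1 averaged 11.3 and 7.63 CPM, while Raet1d, Raet1e, H60b and H60c averaged at most 1.31 CPM in both. Raet1e reached 2.01 CPM in tag 2 of experiment 2. Xcr1 averaged 0.0187 and 2.70 CPM. Of the tested ligand genes, 2 of 4 and 5 of 5 had a ratio of at least 2 between tags (all genes 20.5% and 28.1%), with medians of 1.89 and 3.06.

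Transcription factors of the NK and innate lymphoid programs were read from a list of 15. Of 11 tested in each experiment, 10 and 10 had a highest tag at least 2 times the lowest (all genes 20.5% and 28.1%), with medians of 3.22 and 4.05. In the Tnni1-led cells 9 of 11 and 11 of 13 were at least 2-fold higher than elsewhere, against 9.12% and 9.21% of all genes tested. Id2, which opposes E proteins, stood at 452.8 and 589.2 CPM there against 41.5 and 67.8 CPM elsewhere. Gata3 stood at 257.2 and 172.9 CPM against 76.7 and 46.2 CPM. Tcf7 and Runx1 were not 2-fold higher. Tcf7 was at 276.8 and 152.5 CPM against 162.6 and 105.4 CPM. Runx1 was lower there than elsewhere, at 72.3 and 32.2 CPM against 95.3 and 66.6 CPM. Runx3 was higher, at 324.6 and 261.9 CPM against 145.8 and 118.4 CPM. Rora, a factor of type 2 innate lymphoid cells, stood at 44.7 and 44.2 CPM against 0.749 and 1.67 CPM. The NK factor gene Eomes was at 5.31 CPM (19 UMIs) there against 0 UMIs elsewhere in experiment 1, and at 23.2 against 0.485 CPM in experiment 2. Tbx21, the T-bet gene, was at 2.51 against 0.257 CPM and at 5.32 against 0.908 CPM. In the Cd8b1-led cells Tbx21 was at 24.5 and Eomes at 21.9 CPM.

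Cytokine receptors and effectors completed the lists. Of 9 cytokine receptors tested, 6 in each experiment were at least 2-fold higher in the Tnni1-led cells than elsewhere. The shares over all genes were 9.12% and 9.21%. Il2rb was at 168.4 and 193.0 CPM there against 1.10 and 5.66 CPM elsewhere. Il18r1, a chain of the IL-18 receptor, was at 75.7 and 98.5 CPM. Il21r was lower there, at 10.6 and 6.99 CPM against 22.0 and 29.0 CPM. So was Il12rb2, at 16.8 and 11.5 CPM against 22.0 and 13.1 CPM. Of 9 cytokine receptors tested, 6 and 8 differed at least 2-fold between tags (medians 2.94 and 4.14). Of the tested effector genes, 4 of 6 and 8 of 9 did (medians 3.02 and 10.5). The shares over all genes were 20.5% and 28.1% for both lists. Gzma, a granzyme gene, was abundant throughout, at a mean of 1260 and 1215 CPM over tags. Gzmb was at 807.2 and 1389 CPM in the Tnni1-led cells and 2640 CPM in the Cd8b1-led ones. Gzmc, Ifng and Prf1, at 2631, 325.9 and 115.4 CPM in the Cd8b1-led cells, were at 102.4, 3.36 and 23.8 CPM in the Tnni1-led cells of the same experiment.

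Klrd1 was then read by T-progenitor stage outside the Tnni1-led and Cd8b1-led clusters. Those cells are not all T progenitors. They were divided by a UMI of Kit and of Il2ra, the CD25 gene, which are genes used to stage pro-T cells. In experiment 1 Klrd1 was at 2.95 CPM in Kit-positive, Il2ra-negative cells, 4.51 in double-positive cells, 9.54 in Il2ra-only cells and 4.58 in cells with neither. In experiment 2 the values were 7.92, 7.97, 9.18 and 13.4 CPM. The stromal-like cells of experiment 2, a background group above, were at 6.77 CPM, so no expression is read from a single stage. The source of the stromal Klrd1 UMIs was not tested. Cells with a UMI of Bcl11b, the T-commitment factor, had less Klrd1 than those without: 2.86 against 5.10 CPM in experiment 1 and 3.89 against 10.9 CPM in experiment 2. For Zbtb16, the PLZF gene of innate-like lymphocytes, the values were 0.750 against 5.69 CPM in experiment 1 and 8.02 against 9.77 CPM in experiment 2. The cells without Bcl11b include the C1qb-led cells of experiment 2. These divisions mix tags, whose shares of each differ, and missing a UMI does not show that a gene is off.

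All 7 members were higher in experiment 2 than in experiment 1. The ratio of CPM over all tagged cells was 2.31 for Klrd1 (2.19 to 2.43), 3.70 for Klrk1, 5.52 for Klrc1, 2.13 for Klrc2, 5.37 for Klrb1c, 8.33 for Ncr1 and 29.4 for Xcl1 (25.8 to 33.7). All 7 of 7 were thus at least 2-fold higher, against 8.89% of 14693 genes higher and 1.23% lower by that much, and a median ratio of 0.931 over all genes. Tag 4 of experiment 2 carried part of this: without it the ratios were 1.90, 2.75, 3.93, 1.63, 2.83, 4.99 and 11.8 in the same order, and 5 of 7 were at least 2-fold higher. The groups overlapped for every member. The number of experiment 2 tags above the highest tag of experiment 1 was 2 for Klrd1 and Klrc2, 4 for Klrc1, 5 for Klrk1, Klrb1c and Ncr1, and 6 for Xcl1. Culture time, library and mix of cultures cannot be told apart in this comparison.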

How the data were processed

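The data were 2 single-cell 3′ RNA libraries and their 2 hashtag libraries. The authors' deposited matrices hold raw UMI counts per gene and cell, made with Cell Ranger 3.0.0 on mm10 (GRCm38), per the submitters' processing notes; the deposited hashtag tables hold counts per barcode. How the hashtag reads were counted is not given in the sources used here. Cells with at least 500 genes, under 10% mitochondrial UMIs, and a top hashtag of at least 50 counts and 3 times the second were kept. UMIs were summed per tag and per cluster and given as CPM with exact Poisson, conditional or Clopper-Pearson intervals (95%). Total UMIs per tag ran from 14502385 to 42684236, and no interval covers culture variation. Clusters came from scanpy 1.11.5 (2000 variable genes without the members, 30 components, 15 neighbours, Leiden resolution 0.5) and were named only where at least 3 fixed markers led and no leading gene went against the name. Doublets were reduced by the hashtag ratio; Scrublet marked 4 and 3 cells, too few to be used, so its top 5% of scores was left out as an alternative. Alternative scalings used edgeR 4.0.16 (TMM) and DESeq2 1.42.0 size factors.

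The text names the 7 members, up to 6 genes per list with the highest mean level, and the 3 genes most correlated with each member in at least 30 cells; Rora, Klre1, Il18r1, Ifng and Prf1, the Ly49, Raet1 and H60 genes, Tbx21, Eomes and cluster-leading genes were added after their values were seen. Members and lists were chosen with earlier results of these data known. Simulated tag sums of 31053 genes at the depth of experiment 1 were tested. Of genes changed 3-fold 49 of 49 passed the 2-fold rule, and of those changed 1.5-fold 4 of 48, as did 1.74% of unchanged genes. The sums were Poisson draws, without culture variation or the uneven spread over cells that the members have. Those shares are therefore not error rates for the members. Gene positions and promoter sequences are RefSeq's (GRCm38.p6).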

Additional observations from a re-analysis of the deposited data

Results flagged for a closer look

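A single tag stood far from the other 7 in 5 of the 14 sets of tag levels (7 genes in 2 experiments). The gap rule used was made for normally distributed values, and how often other genes meet it was not measured. In experiment 1 the tag was tag 5 for Xcl1, at 3.08 CPM with the next tag at 1.45 CPM. In experiment 2 it was tag 4 each time: Klrk1 at 45.3 CPM (next 18.7), Klrb1c at 5.16 CPM (next 1.30), Ncr1 at 11.6 CPM (next 4.13) and Xcl1 at 176.1 CPM (next 39.9). The 4 values of tag 4 are not independent, since the same 106 Cd8b1-led cells of that tag enter each. For Klrd1, Klrc1 and Klrc2 tag 8 was close to it, at 46.8, 11.3 and 4.49 CPM.

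Barcodes that passed the gene and mitochondrial filters but had no clear hashtag were in no comparison and also held the members. In experiment 1, 535 such barcodes had 17.4 CPM of the 7 genes summed, within the 3.99 to 52.1 CPM of the tags. In experiment 2, 1879 had 82.8 CPM, within the 11.3 to 311.3 CPM of the tags. Their median depths were 43493 and 29199 UMIs.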

How the results depend on the processing

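The number of members at least 2-fold apart between the experiments stayed within 5 to 7 under every alternative run. Cells with at least 2 members made up 1.61% of experiment 1 under a stricter cell filter (1000 genes, 5% mitochondrial), 1.69% after thinning to 10000 UMIs, and 1.53% to 2.23% with each tag left out in turn. In experiment 2 the share was 4.92% after thinning and 5.51% to 7.26% with each tag left out. With no minimum of UMIs in the lowest tag, 7 and 7 members differed at least 2-fold between tags. Without the 5 cells richest in each tag 1 and 2 did, since fewer kept 10 UMIs in the lowest tag, and with each tag left out 2 to 3 and 4 to 5 did. No ratio of experiment 2 to 1 changed direction under means over cells, a hashtag ratio other than 3, no cell filter or any other setting run on it. TMM and DESeq2 scaling were run only on highest-to-lowest tag ratios and their counts. Such ratios cannot fall below 1, so they have no direction to change. Counts and shares over the set moved by less than counting error or 1.5 times in 78 of 90 recomputations, and single-gene values in 137 of 177.

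The Klrd1 ratio between tags of experiment 1 was 12.0 without tag 7, 13.1 without tag 4 and 51.3 without the 5 richest cells of each tag. The Klrk1 ratio was 4.51 without tag 4 in experiment 1. In experiment 2 it was 44.6 without the richest cells and 10.3 without the Tnni1-led and Cd8b1-led cells, where the Klrd1 ratio was 6.397. Without the richest cells the ratio of experiment 2 to 1 was 237.5 for Xcl1, 53.8 for Ncr1, 19.7 for Klrb1c, 11.1 for Klrc1, 3.77 for Klrc2 and 5.75 for Klrk1. In experiment 1 the 5 richest cells held at least 68.3% of the Xcl1 UMIs of each tag. For Ncr1 and Klrb1c the lowest such shares were 80.8% and 62.5%. The Xcl1, Ncr1 and Klrb1c ratios thus rest on the few UMIs left in experiment 1. Alternatives on clusters were added after the data were seen. At resolution 1.0 the cluster richest in Dntt had Klrd1 at 4.46 and 6.14 CPM and the one richest in Sh2d1a 44.8 and 69.6 CPM. The C1qb-led cluster had Klrd1 at 87.6 and Klrk1 at 55.1 CPM. No paired analysis was possible because the tags carry no condition and no replicate number.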
